A study of Homo sapiens with 6 samples.

Results

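RNA levels of 10 genes of the ATF4 integrated stress response were examined in PC3 cells, an established human prostate carcinoma line, after knockdown of TTC3. The members were chosen by symbol from the 62700 genes of the deposited count table: ATF4 and ATF3, the transcription factor DDIT3 (also called CHOP), and the targets TRIB3, DDIT4, SESN2, CHAC1, ASNS, PHGDH and PSAT1. All 10 were found in 1 row each, and all 10 passed the filter on low counts that left 24325 genes for testing. One group of 3 libraries came from PC3 cells with an shRNA (a short hairpin RNA that lowers a matching messenger RNA) against TTC3, an E3 ubiquitin ligase, with the genotype label TTC3 knockdown. The other group of 3 libraries came from PC3 cells with a control shRNA, with the genotype label WT. Both were grown in F-12K medium with serum, and neither the hairpin sequences nor the way the cells were selected is given in the sources used here. The labels do not state whether replicates are separate cultures, and the p-values rest on the spread among the 6 libraries alone, part of which may be technical.

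The integrated stress response starts with kinases that phosphorylate the translation factor eIF2 when amino acids run short, when unfolded proteins build up in the endoplasmic reticulum, or when viral RNA or heme deficiency is sensed. General translation then falls while the messenger RNA of ATF4 is translated more, because of short upstream reading frames, so the RNA level of ATF4 is a poor guide to its protein. ATF4, a basic leucine zipper (bZIP) protein, binds DNA with C/EBP partners and switches on genes for amino acid synthesis and uptake, for restraint of the growth kinase complex mTORC1, and, through DDIT3, for cell death. Cancer cells use the pathway to keep amino acid supply in step with growth.

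The promoter sequences are shown because ATF4 acts on its targets through a short DNA element, the C/EBP-ATF response element, whose core was searched for as TGATGNAA on both strands. RefSeq promoter windows (GRCh38.p14) from 250 bases before to 50 bases after each annotated start were at hand for all 10 members. The core was in a window of 3 of the 10 members, ASNS, CHAC1 and ATF3, and in a window of 4.46% of all 27305 genes with one. In the sequences below, capitals mark the match, and the ASNS match begins 68 bases before the start. The CHAC1 match, which begins 209 bases before the start, is on the opposite strand, and the ATF3 match begins 191 bases before the start. The windows are chr7:97872359-97872658 on the minus strand for ASNS, chr15:40953221-40953520 on the plus strand for CHAC1 and chr1:212565157-212565456 on the plus strand for ATF3.
ASNS: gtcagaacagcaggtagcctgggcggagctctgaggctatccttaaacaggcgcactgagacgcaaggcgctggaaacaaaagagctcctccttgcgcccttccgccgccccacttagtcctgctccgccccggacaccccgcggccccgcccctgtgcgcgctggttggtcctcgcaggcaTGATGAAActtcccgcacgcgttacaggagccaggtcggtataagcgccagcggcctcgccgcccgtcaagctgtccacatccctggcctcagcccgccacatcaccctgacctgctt
CHAC1: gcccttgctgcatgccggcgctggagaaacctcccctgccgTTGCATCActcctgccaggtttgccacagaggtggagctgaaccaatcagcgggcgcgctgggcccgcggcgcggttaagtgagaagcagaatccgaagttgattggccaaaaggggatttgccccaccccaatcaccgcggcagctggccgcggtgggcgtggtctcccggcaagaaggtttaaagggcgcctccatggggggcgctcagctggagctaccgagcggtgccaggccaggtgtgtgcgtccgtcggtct
ATF3: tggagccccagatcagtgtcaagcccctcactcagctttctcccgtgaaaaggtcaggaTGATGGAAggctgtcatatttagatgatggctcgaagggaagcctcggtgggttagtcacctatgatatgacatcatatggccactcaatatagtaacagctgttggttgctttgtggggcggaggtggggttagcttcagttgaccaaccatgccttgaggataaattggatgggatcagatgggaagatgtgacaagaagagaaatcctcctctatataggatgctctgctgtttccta
A second annotated window of ASNS and of ATF3 held no match. The ATF3 window printed here belongs to a start whose transcript, ENST00000366987.6, had 0 counts in all 6 libraries, and the start of the main ATF3 transcript at 212608670 lies in neither ATF3 window, so its promoter was not searched. The main TRIB3 transcript, ENST00000217233.9, starts at 380617 in GENCODE 29, before every TRIB3 window. The promoter of that start was not searched either. The cyclic AMP response element TGACGTCA and the endoplasmic reticulum stress element were in no member's window, and in windows of 2.25% and 0.0916% of all genes. A match describes these letters only, and binding was not measured.

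The libraries held 144655100 to 155526861 estimated counts with the TTC3 shRNA and 143246356 to 154832203 with the control shRNA. TTC3 itself averaged 196 ± 27.5 CPM (the usual counts scaled to an effective library size) in TTC3 shRNA cells and 687 ± 7.86 CPM in control shRNA cells (SD, n = 3 each), 28.6% of the control level (log2 fold change -1.81 ± 0.10, SE, edgeR adjusted p = 5.65e-05). TTC3 shRNA replicate 1 stood apart from its group: the median over genes of the chi-square of its counts, relative to that of sampling noise alone, was 27.8 against replicate 2 and 35.5 against replicate 3. This ratio, which is of squared differences, was 7.42 between replicates 2 and 3 and 3.85 to 4.95 between control libraries. The small RNAs RN7SL1, RN7SL2, RN7SL3, RN7SK, RMRP and RPPH1 together took 5.61%, 9.81% and 11.7% of counts in TTC3 shRNA replicates 1, 2 and 3, against 6.56% to 7.21% in control libraries. Mitochondrially encoded genes took 6.29%, 3.73% and 3.54% in those TTC3 shRNA replicates, against 5.29% to 5.53% in control libraries. Longer transcripts were lower relative to control, with a slope in log2 CPM for each doubling of length of -0.03, -0.16 and -0.20 in replicates 1, 2 and 3 with the TTC3 shRNA. The part of these features in the results below was not tested. Which members passed the tests, and how many members, list genes and all genes did, is given without TTC3 shRNA replicate 1 where that differs. The epithelial keratins KRT8, KRT18 and KRT19 were at 139 CPM or more in every library. The other epithelial markers were low: EPCAM was at 5.39 to 5.64 CPM in TTC3 shRNA libraries and 4.32 to 4.50 CPM in control libraries, and CDH1 (E-cadherin) at 0.599 ± 0.131 CPM in TTC3 shRNA cells and 1.97 ± 0.0636 CPM in control cells (SD, n = 3 each; log2 fold change -1.72 ± 0.19, SE, edgeR adjusted p = 0.000959). The prostate marker KLK3, which PC3 cells lack, was at 0. Of the markers of other cells, CD3E and CDH5 were at 0. The summed leukocyte markers reached 0.467 to 0.487 CPM with the TTC3 shRNA and 1.34 to 1.44 CPM with the control, the summed fibroblast markers (mostly COL1A1) 43.95 to 102 CPM with the TTC3 shRNA and 19.2 to 20.2 CPM with the control, and the summed endothelial markers (mostly KDR) 55.2 to 62.2 CPM with the TTC3 shRNA and 45.5 to 46.8 CPM with the control. Their part in the results was not tested.

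Of the 10 members 6 fell, ATF3, DDIT4, SESN2, CHAC1, ASNS and DDIT3, and 0 rose (edgeR quasi-likelihood test, Benjamini-Hochberg adjusted p below 0.05 over all tested genes). ATF4 RNA did not pass. In bulk RNA, fewer cells expressing a gene and less of its RNA per cell cannot be told apart. Among all tested genes 33.6% passed this test, 17.8% lower and 15.7% higher. The median log2 fold change (TTC3 shRNA over control shRNA) was -0.61 for the 10 members and -0.02 for all tested genes. Among the 10985 genes with a mean CPM at least that of the lowest member, 17.7% were lower and 25.8% higher, with a median of 0.06. The CPM values of the groups did not overlap for 7 of the 10 members, as for 50.3% of all tested genes. Without TTC3 shRNA replicate 1, 8 members were lower and 2 higher, and of the 25416 genes tested there 7065 were lower and 6674 higher. In a test against a fold of 1.5 the count of lower members was 2, ATF3 and DDIT4, and 1567 of 24325 genes were lower. None of the 10 changed sign under any alternative scaling. With library totals alone as the scale, the median of all genes was -0.15 in place of -0.02, and 2518 genes were higher and 5356 lower in place of 3827 and 4338.

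**Figure D1:**
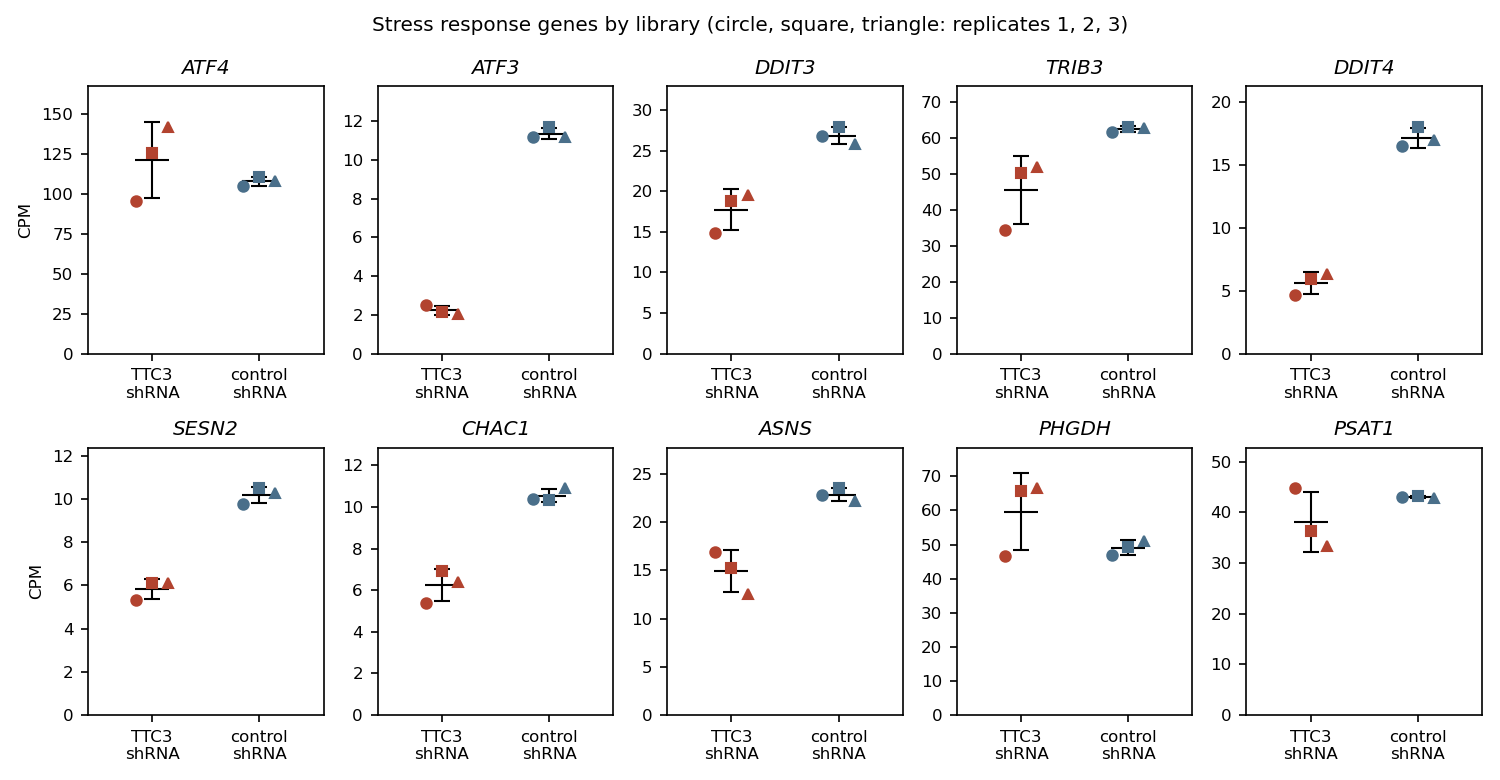
CPM of the 10 members in each library, with the 3 TTC3 shRNA libraries left of the 3 control shRNA libraries in each panel. Circles, squares and triangles are replicates 1, 2 and 3, and bars are the mean and SD. ATF3, DDIT4, SESN2, CHAC1, ASNS, DDIT3 and TRIB3 lie below every control library with the TTC3 shRNA, and ATF4, PHGDH and PSAT1 overlap.

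Of the 3 transcription factors, ATF4 (ENSG00000128272.18, hg38 chromosome 22, 39519695 to 39522685) was at 95.2, 126 and 142 CPM in TTC3 shRNA replicates 1, 2 and 3, against 105, 110 and 108 CPM in control replicates 1, 2 and 3. The TTC3 shRNA libraries lay on both sides of the controls, with replicate 1 below and replicates 2 and 3 above. Its log2 fold change was 0.17 ± 0.14 (SE, edgeR adjusted p = 0.386). It passed as higher once TTC3 shRNA replicate 1 was left out (0.33, edgeR adjusted p = 0.00121; alternatives spanned 0.00121 to 1). The pseudogenes ATF4P1 to ATF4P4 were at 75 counts or fewer in each library.

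ATF3 showed the deepest fall of the 10. It encodes a bZIP repressor and immediate early gene product that ATF4 induces, and lies on chromosome 1 (ENSG00000162772.18, 212565334 to 212620777). TTC3 shRNA libraries had 377, 295 and 292 counts or 2.50, 2.15 and 2.03 CPM, against 1794, 1891 and 1670 counts or 11.2, 11.7 and 11.2 CPM in control libraries. Every TTC3 shRNA library was far below every control, and replicate 1 was close to the other two. ATF3 was 5.10-fold lower (log2 fold change -2.35 ± 0.12, SE, edgeR adjusted p = 2.7e-05), and 3.93% of tested genes had a lower log2 fold change. By transcript, ENST00000341491.9, which starts at 212608670 and held 88.4% to 94.4% of the TTC3 shRNA counts and 89.3% to 93.6% of the control counts of the gene, had a log2 fold change of -2.38 ± 0.20 (SE, edgeR adjusted p = 0.00743 over all transcripts).

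DDIT3, the bZIP factor linked to death under prolonged stress, lies on chromosome 12 (ENSG00000175197.13, 57516588 to 57521737). It was at 14.8, 18.8 and 19.5 CPM in TTC3 shRNA libraries and 26.8, 27.96 and 25.9 CPM in control libraries. The groups did not overlap, and TTC3 shRNA replicate 1 was the lowest. DDIT3 was 1.52-fold lower (log2 fold change -0.60 ± 0.11, SE, edgeR adjusted p = 0.00731). MARS1 and MBD6, on the opposite strand, overlap its ends, and whether counting used the strand is not given in the sources used here, so its level is uncertain.

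TRIB3 encodes a pseudokinase that ATF4 and DDIT3 induce and that binds both ATF4 and the kinase AKT. It was at 34.5, 50.3 and 51.9 CPM in TTC3 shRNA libraries and 61.6, 63.2 and 62.8 CPM in control libraries. All 3 TTC3 shRNA libraries were below all controls, but replicate 1 lay well below replicates 2 and 3. The log2 fold change was -0.46 ± 0.15 (SE), just short of the threshold (edgeR adjusted p = 0.0516). It passed without TTC3 shRNA replicate 1 (log2 fold change -0.27, edgeR adjusted p = 0.000182) and with DESeq2 (-0.45, adjusted p = 0.0165), and the alternatives spanned 0.000182 to 1, with 1 from the test against a fold of 1.5.

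**Figure D2:**
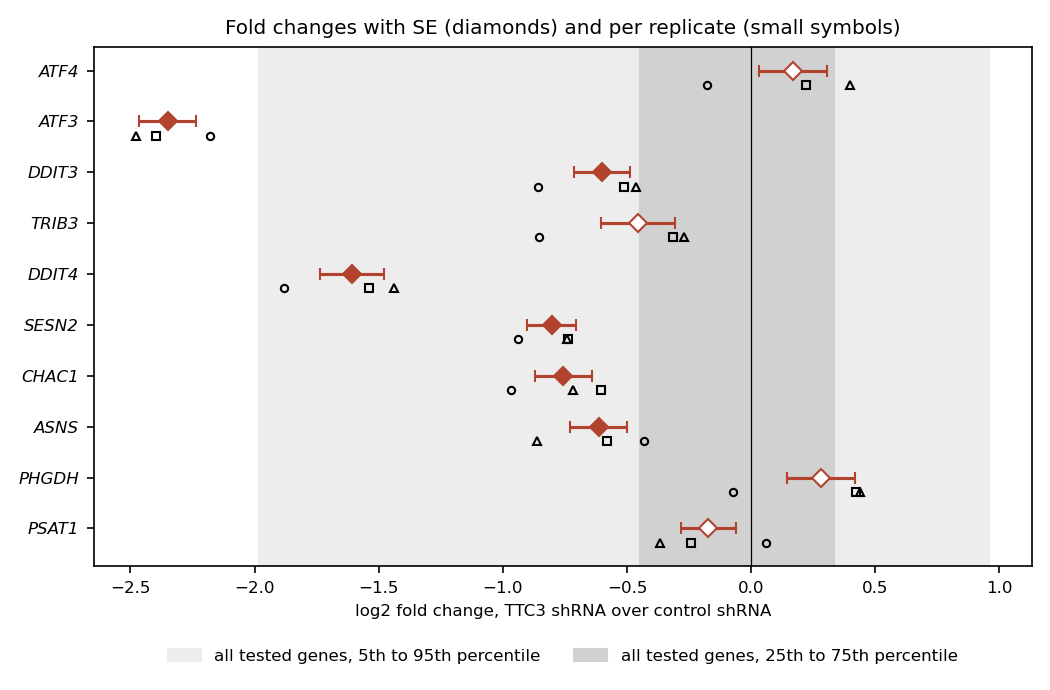
Log2 fold change of each member, TTC3 shRNA over control shRNA. Diamonds are the edgeR estimate with its SE, filled where the adjusted p was below 0.05, and the small circles, squares and triangles are TTC3 shRNA replicates 1, 2 and 3 against the control mean. Shading gives the spread of all tested genes, whose 5th to 95th percentiles run from -1.98 to 0.96 and whose 25th to 75th run from -0.45 to 0.34. ATF3 alone of the 10 lies outside the wider band.

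The restraints on mTORC1 were both lower. DDIT4 (REDD1), which activates the TSC complex that inhibits mTORC1 and is also induced by hypoxia and glucocorticoids, was at 4.66, 5.91 and 6.34 CPM in TTC3 shRNA libraries against 16.5, 18.1 and 17.0 CPM in control libraries. The gap between the groups was wider than the range within either. DDIT4 was 3.05-fold lower (log2 fold change -1.61 ± 0.13, SE, edgeR adjusted p = 0.000228). SESN2, a leucine sensor that keeps mTORC1 off through the GATOR complexes, was at 5.31, 6.10 and 6.09 CPM in TTC3 shRNA libraries against 9.77, 10.5 and 10.3 CPM in control libraries. SESN2 had the smallest spread of the 10 among TTC3 shRNA libraries, a coefficient of variation of 7.73%. Its log2 fold change was -0.80 ± 0.10 (SE, edgeR adjusted p = 0.00136). Both genes were represented by 1 transcript each, ENST00000307365.4 and ENST00000253063.4, whose log2 fold changes were -1.61 ± 0.17 and -0.83 ± 0.15 (SE, edgeR adjusted p = 0.0138 and 0.0486 over all transcripts).

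The glutathione-degrading enzyme CHAC1, an ATF4 and ATF3 target of the endoplasmic reticulum stress branch, was at 5.39, 6.92 and 6.41 CPM in TTC3 shRNA libraries and 10.4, 10.4 and 10.9 CPM in control libraries. The groups were well apart. The log2 fold change of CHAC1 was -0.76 ± 0.11 (SE, edgeR adjusted p = 0.0032), which is 1.69-fold lower.

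The amino acid synthesis enzymes did not move together. ASNS, asparagine synthetase and the best studied amino acid response gene, was at 16.9, 15.3 and 12.6 CPM in TTC3 shRNA libraries against 22.8, 23.5 and 22.2 CPM in control libraries. No TTC3 shRNA library reached the controls, and replicate 1 was the nearest to them. The log2 fold change of ASNS was -0.61 ± 0.11 (SE, edgeR adjusted p = 0.00698). A noncoding gene on the same strand, AC079781.5 in GENCODE 29, overlaps it and had 863 to 2035 counts per library, so how reads were divided between them is uncertain.

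PHGDH, which catalyses the first step of serine synthesis from glucose, was at 46.6, 65.8 and 66.5 CPM in TTC3 shRNA libraries and 46.9, 49.3 and 51.2 CPM in control libraries. Replicate 1 was just below all controls and replicates 2 and 3 above them. Its log2 fold change was 0.28 ± 0.14 (SE, edgeR adjusted p = 0.157). PSAT1, the transaminase of the second step, was at 44.7, 36.4 and 33.3 CPM in TTC3 shRNA libraries and 42.9, 43.2 and 42.8 CPM in control libraries, with replicate 1 above and replicates 2 and 3 below the controls (log2 fold change -0.17 ± 0.11, SE, edgeR adjusted p = 0.267). Without TTC3 shRNA replicate 1, PHGDH was higher (0.45, edgeR adjusted p = 6.29e-05; alternatives spanned 6.29e-05 to 1) and PSAT1 lower (-0.29, edgeR adjusted p = 0.000901; alternatives spanned 0.000901 to 1).

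The members also differed in how TTC3 shRNA replicate 1 departed from replicates 2 and 3. It was the lowest of the 3 for ATF4, DDIT3, TRIB3, DDIT4, SESN2, CHAC1 and PHGDH, and the highest for ATF3, ASNS and PSAT1. Coefficients of variation were 7.73% to 21.0% among TTC3 shRNA libraries, with a median of 15.1%, and 0.482% to 4.66% among control libraries, with a median of 2.90%. Every member was thus more variable with the TTC3 shRNA. With each library's trend with transcript length removed, the 6 members that fell had log2 fold changes of -2.49 for ATF3, -1.79 for DDIT4, -0.96 for CHAC1, -0.92 for DDIT3, -0.81 for SESN2 and -0.74 for ASNS, and the median of all genes was -0.14. All 6 passed the edgeR test there too, and TRIB3 did as well (-0.55, adjusted p = 0.0196). Among all tested genes 5171 were lower and 3109 higher there, in place of 4338 and 3827.

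**Figure D3:**
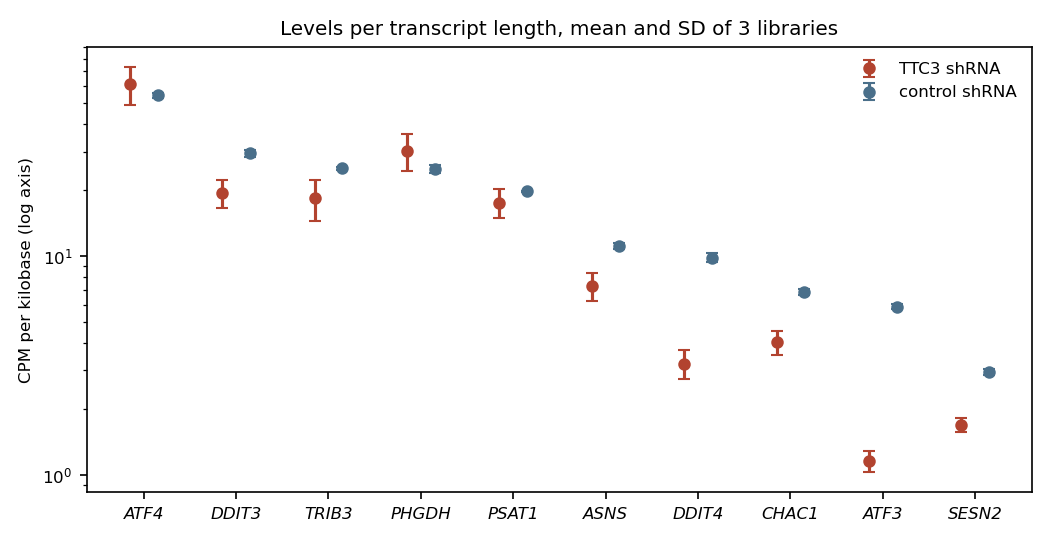
Mean level of each member in CPM per kilobase of transcript, on a log axis, with the SD over 3 libraries, TTC3 shRNA left of control shRNA for each gene. Genes run from the highest control level, ATF4 at 54.5, to the lowest, SESN2 at 2.95.

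On the scale of CPM per kilobase of transcript, which allows levels of different genes to be compared, ATF4 was the most abundant of the 10 in both groups, at 61.2 ± 11.9 in TTC3 shRNA cells and 54.5 ± 1.36 in control cells (SD, n = 3 each). Lengths were averaged over GENCODE 29 transcripts weighted by their counts. Those transcripts held 98.6% or more of the count of each other member but 32.7% of the ATF4 count, so the ATF4 level is uncertain. In TTC3 shRNA cells PHGDH followed at 30.4 ± 5.73, then DDIT3 at 19.4 ± 2.79, TRIB3 at 18.3 ± 3.86 and PSAT1 at 17.6 ± 2.72, which did not differ beyond their spread. ASNS (7.27 ± 1.07), CHAC1 (4.04 ± 0.504), DDIT4 (3.22 ± 0.499), SESN2 (1.69 ± 0.131) and ATF3 (1.15 ± 0.126) came last. In control cells DDIT3 was second at 29.5 ± 1.14, with TRIB3 (25.2 ± 0.330) next and not apart from PHGDH, and ATF3 (5.87 ± 0.157) stood above SESN2 (2.95 ± 0.108). ATF3 was therefore the lowest of the 10 in TTC3 shRNA cells and the second lowest in control cells.

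Of 34 annotated transcripts of the members in the transcript table, 26 were tested, 4 were lower and 0 higher, against 3.99% of all tested transcripts that passed in either direction. The 4 were the ATF3, DDIT4 and SESN2 transcripts above and a shorter ATF3 transcript, ENST00000366983.5, at 0.107 ± 0.0629 CPM in TTC3 shRNA cells and 0.881 ± 0.221 CPM in control cells (SD, n = 3 each). Leaving out 1 control replicate at a time gave 0 lower transcripts each time, and leaving out TTC3 shRNA replicate 1, 2 or 3 gave 6, 1 and 1. In the last of these, 1 transcript was also higher. An ATF4 transcript with an earlier start, ENST00000404241.6, was estimated at 38.4, 50.6 and 1.23 CPM in TTC3 shRNA replicates 1, 2 and 3 and at 1.22, 0.816 and 0.459 CPM in control replicates. The value in TTC3 shRNA replicate 3 was at the control level, and the transcript did not pass (edgeR adjusted p = 0.112). Transcripts of a gene share most of their sequence, so these estimates are uncertain.

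The members lie on several chromosomes, and nearby genes were compared with them. Within 1 Mb on either side of ATF3, 25 tested neighbours had a median log2 fold change of 0.15, 8 of them higher and 0 lower. Among all tested genes 15.7% were higher and 17.8% lower. Around DDIT4 the median of 35 neighbours was 0.08, around SESN2 that of 59 was 0.04, around CHAC1 that of 63 was -0.06, around DDIT3 that of 54 was -0.00420 and around ASNS that of 15 was 0.21. Higher and lower neighbours were 3 and 5 for DDIT4, 10 and 6 for SESN2, and 6 and 8 for CHAC1. They were 8 and 7 for DDIT3, and 2 and 3 for ASNS. Of the members that did not pass, PHGDH had a median of -0.50 over 12 neighbours and TRIB3 -0.12 over 26. For ATF4 it was 0.13 over 45, and for PSAT1 0.02 over 3.

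Upstream of ATF4, the eIF2 kinases and sensors had 2 of 8 tested genes lower and 0 higher, with a median log2 fold change of -0.12 against -0.02 for all tested genes. Beside this list and those below, the shares among all tested genes were 17.8% lower and 15.7% higher. At or above the lowest member's level they were 17.7% and 25.8%. The kinase that senses double-stranded RNA, EIF2AK2 (PKR), an interferon-stimulated gene, was at 143.3, 116 and 122 CPM in TTC3 shRNA libraries and 205, 203 and 200 CPM in control libraries (log2 fold change -0.67 ± 0.09, SE, edgeR adjusted p = 0.00176). EIF2AK3 (PERK), the kinase of the endoplasmic reticulum, fell by 0.24 ± 0.07 (edgeR adjusted p = 0.0372). The amino acid sensing kinase EIF2AK4 (GCN2), chosen after its values were seen, was at 184 ± 4.64 CPM in TTC3 shRNA cells and 185 ± 1.99 CPM in control cells (edgeR adjusted p = 0.937). The lower count was 1 without TTC3 shRNA replicate 2 or 3 or any control replicate. Leaving out replicate 1 of the TTC3 shRNA gave 4 lower and 2 higher. Beside these counts and those below without that replicate, 7065 of 25416 tested genes were lower and 6674 higher.

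Among eIF2, eIF2B and eIF2 phosphatase subunits 3 of 12 tested genes were higher and 1 lower, with a median of 0.05. PPP1R15A (GADD34), the stress-induced phosphatase subunit that removes phosphate from eIF2 in a feedback loop downstream of ATF4, was at 29.8, 43.4 and 43.4 CPM in TTC3 shRNA libraries and 95.2, 96.1 and 96.6 CPM in control libraries. Its log2 fold change was -1.30 ± 0.14 (SE, edgeR adjusted p = 0.000871). EIF2B4 and EIF2B5, subunits of the exchange factor that recharges eIF2, rose by 0.67 ± 0.09 and 0.25 ± 0.06, and the translation factor EIF2D rose by 0.32 ± 0.06. Leaving out TTC3 shRNA replicate 1 gave 5 higher and 2 lower.

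Of 16 tested bZIP partners and relatives of ATF4, 4 were lower and 2 higher, with a median of -0.05. FOS, an AP-1 subunit, was at 0.597, 0.613 and 0.717 CPM in TTC3 shRNA libraries and 2.13, 2.55 and 2.61 CPM in control libraries, with a log2 fold change of -1.92 ± 0.16 (SE, edgeR adjusted p = 0.000263). JUNB fell by 1.44 ± 0.21 and the C/EBP family member CEBPD by 1.04 ± 0.24. ATF5, a stress factor under translational control like ATF4, rose by 0.57 ± 0.12 (edgeR adjusted p = 0.0137). The higher count was 0 without any control replicate or without TTC3 shRNA replicate 2, 1 without replicate 3 and 4 without replicate 1 of that group. The lower count was 7 without TTC3 shRNA replicate 1 or with the length trend removed, and 2 without replicate 2 of that group or control replicate 1 or 2.

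The list of other serine, glycine, one-carbon and proline synthesis genes also holds further amino acid enzymes, GOT1 and ASS1 among them. It had 5 of 16 genes higher and 3 lower, with a median of 0.16. The shares over all tested genes were 15.7% higher and 17.8% lower. At or above the lowest member's level they were 25.8% and 17.7%. GOT1, the cytosolic aspartate aminotransferase, rose by 0.53 ± 0.06 (log2, SE; edgeR adjusted p = 0.00107) and MTHFD2, the mitochondrial folate enzyme, by 0.47 ± 0.06 (edgeR adjusted p = 0.0017). PSPH, the last enzyme of serine synthesis, chosen after its values were seen, was at 33.7, 42.5 and 42.3 CPM in TTC3 shRNA libraries and 28.3, 27.99 and 26.3 CPM in control libraries (0.52 ± 0.10, edgeR adjusted p = 0.00885). ASS1, argininosuccinate synthetase, fell by 1.39 ± 0.17 at a low level, and CTH, the cysteine-producing cystathionine lyase, fell by 0.79 ± 0.14. Leaving out TTC3 shRNA replicate 1 gave 8 higher and 5 lower, and 7 were lower with library totals alone and 5 with the length trend removed.

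Amino acid transporters of the pathway had 1 of 10 tested genes higher and 1 lower, with a median of 0.09. SLC38A2 (SNAT2), the adaptive neutral amino acid carrier, was at 871, 602 and 602 CPM in TTC3 shRNA libraries and 1319, 1278 and 1262 CPM in control libraries (log2 fold change -0.89 ± 0.15, SE, edgeR adjusted p = 0.00458). SLC7A11, the cystine-glutamate exchanger, rose by 0.64 ± 0.12 (edgeR adjusted p = 0.00734). Without TTC3 shRNA replicate 1, 3 were higher and 2 lower, and 2 were higher with DESeq2 size factors or with the length trend removed.

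Cytosolic tRNA synthetases charge tRNAs with amino acids, and ATF4 induces several of them. Their list, which also holds a tRNA export receptor, had 11 of 21 genes higher and 0 lower. Its median was 0.18 against -0.02 for all tested genes. Among all tested genes 15.7% were higher, and 25.8% among those at or above the lowest member's level. QARS1, HARS1, FARSB and VARS1 rose by 0.53 ± 0.08, 0.46 ± 0.07, 0.64 ± 0.12 and 0.56 ± 0.13 on the log2 scale (SE). The higher count was 3 without TTC3 shRNA replicate 2 or any control replicate, 6 without replicate 3 of the TTC3 shRNA and 5 with library totals alone. Leaving out replicate 1 of that group gave 14 higher and 2 lower.

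Other stress outputs of ATF4 and DDIT3 had 11 of 20 tested genes lower and 3 higher, with a median of -0.28 against -0.02 for all tested genes. Of all tested genes 17.8% were lower and 15.7% higher. At or above the lowest member's level the shares were 17.7% and 25.8%. GDF15, a secreted stress hormone, was at 7.62, 11.8 and 14.7 CPM in TTC3 shRNA libraries and 163, 169 and 172 CPM in control libraries, with a log2 fold change of -3.89 ± 0.23 (SE, edgeR adjusted p = 6.32e-05). The secreted glycoprotein STC2 was at 31.9, 30.7 and 30.9 CPM in TTC3 shRNA libraries against 128, 131 and 130 CPM in control libraries and fell by 2.05 ± 0.06 (edgeR adjusted p = 4.48e-06). VEGFA, the angiogenic factor, fell by 1.27 ± 0.07, and the autophagy protein gene ATG12 by 1.04 ± 0.07. The higher count was 1 without any control replicate. Leaving out TTC3 shRNA replicate 1 gave 13 lower and 4 higher.

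Genes of the sestrin, GATOR and TSC system around DDIT4 and SESN2 had 5 of 16 tested members higher and 1 lower, with a median of 0.07. The SESN2 paralogs SESN1 and SESN3, named after their values were seen, were not past the threshold (log2 fold change -0.19 ± 0.16 and -0.28 ± 0.16, SE, edgeR adjusted p = 0.402 and 0.217). CASTOR2, of the family that senses arginine for mTORC1, rose by 0.92 ± 0.08, SEH1L and NPRL3 of the GATOR complexes by 0.37 ± 0.06 and 0.26 ± 0.07, and TSC1 fell by 0.25 ± 0.07. The higher count was 10 without TTC3 shRNA replicate 1, 2 without replicate 2 or 3 of that group, without any control replicate or with library totals alone, and 3 with the length trend removed. The lower count was 3 without TTC3 shRNA replicate 1, 0 without any other library and 2 with library totals alone.

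Targets of the ATF6 and XBP1 arms of the unfolded protein response had 10 of 16 genes higher and 1 lower, with a median of 0.64. Of all tested genes 15.7% were higher and 17.8% lower. At or above the lowest member's level the shares were 25.8% and 17.7%. CALR, the calcium-binding chaperone, was at 1615, 2049 and 2158 CPM in TTC3 shRNA libraries and 782, 804 and 808 CPM in control libraries, with a log2 fold change of 1.28 ± 0.11 (SE, edgeR adjusted p = 0.000325). PDIA6 and PDIA4, disulfide isomerases, rose by 0.90 ± 0.06 and 0.94 ± 0.08, and the chaperone HYOU1 by 0.86 ± 0.08. Without TTC3 shRNA replicate 1, 12 were higher and 3 lower, and the lower count was 0 without any other library. Differences between the members and any of these lists, or between the lists, were not tested.

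**Figure D4:**
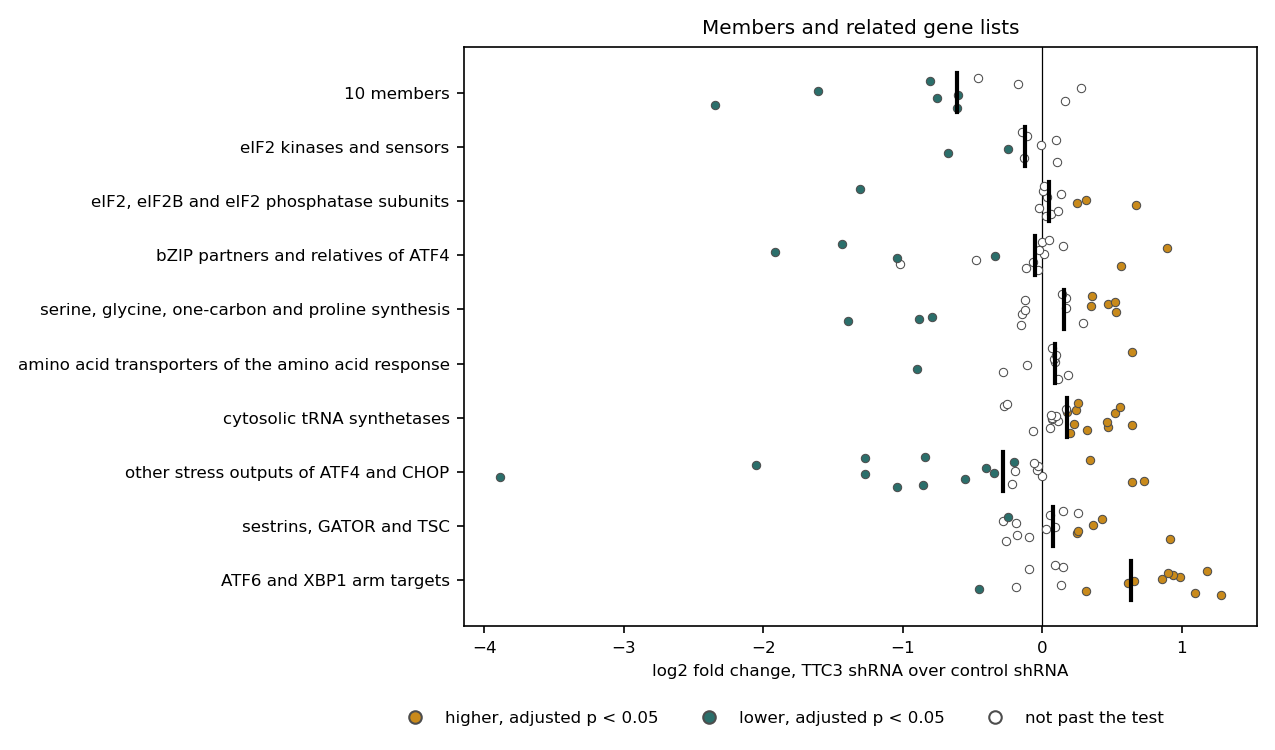
Log2 fold change, TTC3 shRNA over control shRNA, of each tested gene in the members and 9 related lists. Filled points passed the edgeR test (orange higher, teal lower), open points did not, and black bars are medians. The bar lies at -0.61 for the 10 members, at -0.28 for other stress outputs and at 0.64 for ATF6 and XBP1 targets.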

How the data were processed

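RNA from PC3 cells was depleted of ribosomal RNA and made into strand-specific libraries, per the labels' protocols. Trim Galore, STAR, StringTie and hg38 are named in the submitters' processing notes, while their versions and settings, the annotation release and whether strand was used were not stated. The authors deposited estimated counts of genes and of transcripts, whole numbers with no scaling. Totals were 143246356 to 155526861, and the lowest count of a member was 292.

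The test was that of edgeR 4.0.16 (R 4.3.3), after its filterByExpr (default counts of 10 and 15 in total), with TMM factors of 0.924 to 1.05 and glmQLFit with glmQLFTest on group alone over the 6 libraries. Adjusted p-values are Benjamini-Hochberg over 24325 genes or 53805 transcripts, with 0.05 as the threshold. An SE is the log2 fold change divided by the square root of F. Positions came from GENCODE 29 (hg38), which gave lengths for 57031 genes and 98286 transcripts. Promoters came from RefSeq. Alternatives were other scalings, DESeq2 1.42.0, limma 3.58.1 (voom), other filters and thresholds, a replicate block, a length trend (lowess, span 0.5, genes of 5 CPM or more outside the lists), and each library left out. The procedure was run on simulated counts of independent libraries. These held no outlying replicate and no length trend, so that run cannot speak for the calls made here.

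The 10 members, all lists and the tests were chosen with earlier results of these data known. Text names all members, TTC3 and up to 4 genes per list in order of adjusted p, and others are marked as chosen after their values were seen.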

Additional observations from a re-analysis of the deposited data

How the results depend on the processing

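Each of the 10 members kept its sign in all 17 alternatives. The test against a fold of 1.5 and the adjusted p of 0.01 reuse the reported fold changes, so they could not alter a sign. The 6 members that fell passed in every one, except that DDIT3, ASNS, CHAC1 and SESN2 did not pass a test against a fold of 1.5 (adjusted p of 0.760, 0.705, 0.197 and 0.0803), which left 2 members lower. TRIB3, not past the threshold in the fit reported, passed in 7. Leaving out each library in turn gave 6 to 8 members lower and 0 to 2 higher, and 1835 to 6674 genes higher and 2711 to 7065 lower. For all genes, library totals alone gave 2518 higher, a test against a fold of 1.5 gave 466 higher and 1567 lower, and an adjusted p of 0.01 gave 1688 higher and 2394 lower. Member transcripts were 2 lower with no filter, 0 to 6 lower with each library left out and 0 to 1 higher. The cause of these changes was not tested.

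Replicate numbers in the labels were not used to pair the libraries in the fit reported. Same-numbered libraries had correlations of 0.0451, 0.0395 and -0.00582 in their deviations from the group means, and the numbers share no stated source. With the replicate number as a block, 7 members were lower, TRIB3 among them (adjusted p = 0.0421; alternatives spanned 0.000182 to 1), 3210 genes were higher and 3719 lower, and 0 member transcripts were lower. In the lists the block gave 7 tRNA synthetases higher, 1 eIF2 kinase or sensor lower, 1 bZIP gene higher, and 3 genes higher and 0 lower of the sestrin, GATOR and TSC system. TTC3 shRNA replicates 1 and 2 correlated best with the control of their own number. Replicate 3 of the TTC3 shRNA correlated best with control replicate 2 (0.0190). The promoter match count of 3 members was the same in the 250 bases before the start. The lowest member count was 292, for ATF3, and the part of counting error in the spread between libraries was not tested.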
